A study of Mus musculus with 10 samples.

Results

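Chemokines are small secreted proteins that direct the movement of leukocytes, and their receptors are seven-helix proteins of the cell surface that signal through inhibitory G proteins. In the liver, macrophages, endothelium, stellate cells and injured hepatocytes release chemokines, and circulating monocytes, neutrophils and lymphocytes follow them into the tissue. A small group of atypical receptors binds chemokines without G protein signalling and removes or transports them. The members described here were all genes of the deposited expression table whose symbols are those of numbered CC or CXC chemokines, of Cx3cl1 or Xcl1, of the matching receptors, or of the atypical receptors Ackr1 to Ackr4. They were 54 of the 29657 genes listed, with 32 ligands, 18 signalling receptors and 4 atypical receptors.

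The samples were 10 liver libraries from C57BL/6 mice, all on CDAHFD, a choline-deficient diet rich in fat that is used to produce steatohepatitis, for 8 weeks. The 5 control samples carry the genotype label WT and came from mice given AAV8-NC, a control adeno-associated virus. The other 5 came from mice given AAV8-TBG-galectin-3 and are labelled as a hepatocyte knockdown of galectin-3; TBG is a promoter active in hepatocytes, so other cells of the liver were not the aim of the vector. The series asks what this knockdown does to the steatohepatitis of the mice, and both groups shared the diet and the virus type. The labels number the samples 1 to 5 without saying that each is a separate animal, so p-values measure the spread between these samples. Values are FPKM of poly(A)-selected RNA, which are fragments scaled to transcript length and to library size, so levels can be set side by side between genes. The libraries held 21653 to 23079 genes above 0, and their depth is unknown. Hepatocyte markers, which include albumin, summed to 36800 to 41400 FPKM in the control libraries and to 32900 to 41400 FPKM in the others.

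Lgals3 (ENSMUSG00000050335), the targeted gene, had a mean of 70.8 ± 22.9 FPKM under the control virus and of 74.2 ± 20.1 FPKM under the galectin-3 virus (SD, n = 5 a group; p = 0.825 by an exact two-sided permutation test). A decrease of the target was therefore not detected in whole liver, and the second group is called labelled knockdown below. The sign of its small log2 fold change (0.08) was not stable: it was -0.09 when control 5 was left out and -0.01 when labelled knockdown 2 was. All directions for chemokines rest on the labels.

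The promoters of 5 members are shown first. The results below turn on 2 ligands and a receptor among them that passed the test (Ccl6, Cxcl2 and Ccr1). They also turn on a ligand gene next to each of those ligands on its chromosome (Ccl9 beside Ccl6, Cxcl1 beside Cxcl2). Each sequence is the 250 bases before the start of the gene in RefSeq, build GRCm38.p6, read 5′ to 3′ on the gene's own strand. Capitals mark matches, on either strand, to the NF-kB consensus, to the AP-1 site TGANTCA, to the PU.1 core GAGGAA, to the STAT site TTCNNNGAA or to the TATA box TATAAA; overlapping matches run together.
Ccl6, chr11:83593088-83593337, minus strand: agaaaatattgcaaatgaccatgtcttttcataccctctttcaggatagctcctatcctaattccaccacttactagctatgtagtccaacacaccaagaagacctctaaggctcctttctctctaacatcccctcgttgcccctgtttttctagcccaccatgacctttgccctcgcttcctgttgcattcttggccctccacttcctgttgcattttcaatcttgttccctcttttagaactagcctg
Ccl9, chr11:83578637-83578886, minus strand: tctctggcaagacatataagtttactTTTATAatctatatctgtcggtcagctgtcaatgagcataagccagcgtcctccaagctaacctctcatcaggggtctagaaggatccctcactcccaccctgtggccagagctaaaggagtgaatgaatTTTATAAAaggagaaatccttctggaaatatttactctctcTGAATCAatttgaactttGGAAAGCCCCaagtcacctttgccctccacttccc
Ccr1, chr9:123968693-123968942, minus strand: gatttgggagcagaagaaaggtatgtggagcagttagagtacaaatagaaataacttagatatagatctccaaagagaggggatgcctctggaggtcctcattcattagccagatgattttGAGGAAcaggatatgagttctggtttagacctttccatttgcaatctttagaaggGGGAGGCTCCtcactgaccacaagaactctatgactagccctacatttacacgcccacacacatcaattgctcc
Cxcl1, chr5:90890995-90891244, plus strand: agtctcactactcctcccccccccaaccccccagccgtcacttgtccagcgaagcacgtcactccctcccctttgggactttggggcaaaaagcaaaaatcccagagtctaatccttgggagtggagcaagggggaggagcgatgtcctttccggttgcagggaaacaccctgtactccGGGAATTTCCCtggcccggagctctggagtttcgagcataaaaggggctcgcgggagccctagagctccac
Cxcl2, chr5:90903649-90903898, plus strand: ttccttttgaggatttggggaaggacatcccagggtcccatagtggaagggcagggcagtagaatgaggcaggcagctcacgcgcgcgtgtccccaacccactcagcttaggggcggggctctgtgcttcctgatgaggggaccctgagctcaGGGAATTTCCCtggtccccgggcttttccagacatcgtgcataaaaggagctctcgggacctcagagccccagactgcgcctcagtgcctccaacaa

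In these windows Cxcl1 and Cxcl2 carried the same run, GGGAATTTCCC, which matches the NF-kB consensus on both strands. It lay from -71 to -61 in Cxcl1 and from -97 to -87 in Cxcl2, counted from the start of the gene. Ccl9 held an NF-kB match of another sequence, an AP-1 match and TATA matches, Ccr1 held an NF-kB and a PU.1 match, and Ccl6 held none of the 5 motifs. Of the 40 members with a promoter in the RefSeq table, 10 held an NF-kB match (25.0%), against 7.01% of 27025 genes. The other shares were 27.5% against 13.0% for the TATA box, 27.5% against 23.1% for PU.1, 10% against 6.87% for AP-1 and 7.50% against 7.18% for STAT. These are counts of letters in a window and not of bound sites.

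The levels of the 54 members spanned more than 3 orders of magnitude, and a few ligands made up most of the signal. The 4 ligands with the highest mean over all 10 libraries were Cxcl1 (27.3 FPKM), Cxcl12 (23.5), Ccl9 (20.6) and Ccl6 (9.66), and they held 60.2% of the summed mean FPKM of all 32 ligands. Cxcl1 attracts neutrophils through Cxcr2, Cxcl12 retains leukocytes and progenitors through Cxcr4, and Ccl6 and Ccl9 are ligands of Ccr1 found in rodents. The receptors were far lower. Cxcr4 (2.66 FPKM), Cx3cr1 (2.06), the receptor of fractalkine, and Ccr2 (1.92), the receptor by which monocytes leave the marrow, held 56.4% of the summed mean FPKM of the 18 signalling receptors. Ligands summed to 146 ± 23.8 FPKM in the control libraries and to 123 ± 14.5 FPKM in the labelled knockdown libraries, and signalling receptors to 12.9 ± 1.83 and 10.6 ± 3.33 FPKM (SD, n = 5 each), given here without a test.

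**Figure D1:**
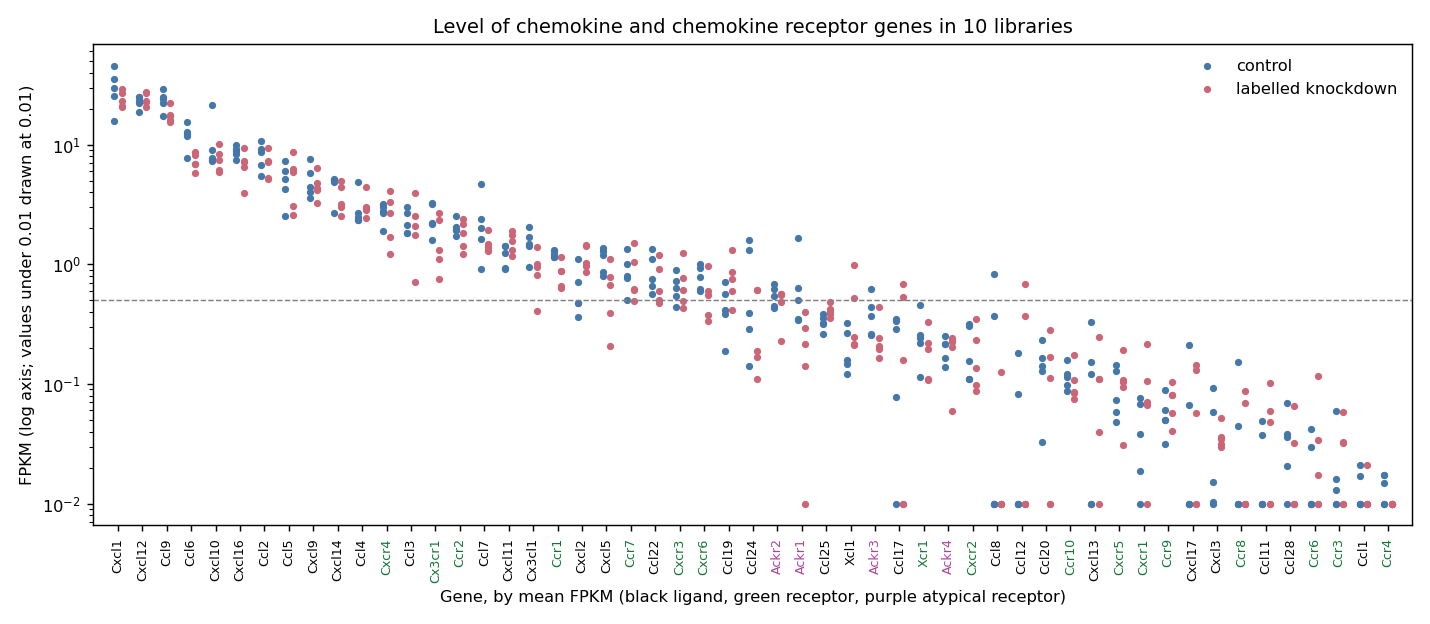
FPKM (log axis) of 53 chemokine and receptor genes in each of the 10 libraries, ordered by the mean over all libraries; blue points are control, red points labelled knockdown, the dashed line marks 0.5 FPKM, and values under 0.01, zeros included, are drawn at 0.01. Cxcl1 leads with a mean of 27.3 FPKM, the highest receptor, Cxcr4, has a mean of 2.66 FPKM, and 12 genes have a mean under 0.1 FPKM.

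Genes with at least 0.5 FPKM in at least 5 libraries were tested, and 28 of the 54 members were among them: 19 ligands, 8 receptors and the atypical receptor Ackr2. Of these 28, 3 were lower (Ccl6 and Ccr1 among them) and 1 was higher (Cxcl2) in the labelled knockdown group, by limma with an adjusted p under 0.05. That is 14.3% of the tested members, where the background was 16.8% of all 13471 tested genes (9.65% lower and 7.13% higher), so the share of called members was close to that of other genes. The median log2 fold change of the 28 was -0.16, and that of all tested genes was -0.04; 21 of the 28 and 55.6% of all tested genes lay below 0. None of the 28 had groups without overlap, against 13.1% of all tested genes (7.48% lower and 5.66% higher), so each call below rests on shifted groups that share part of their range. A member that is high in 1 group could pass the minimum through that group, so these counts describe and do not support a direction. With every gene fitted and no minimum, limma called 0 members, and 8 of 54 had an unadjusted p under 0.05.

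**Figure D2:**
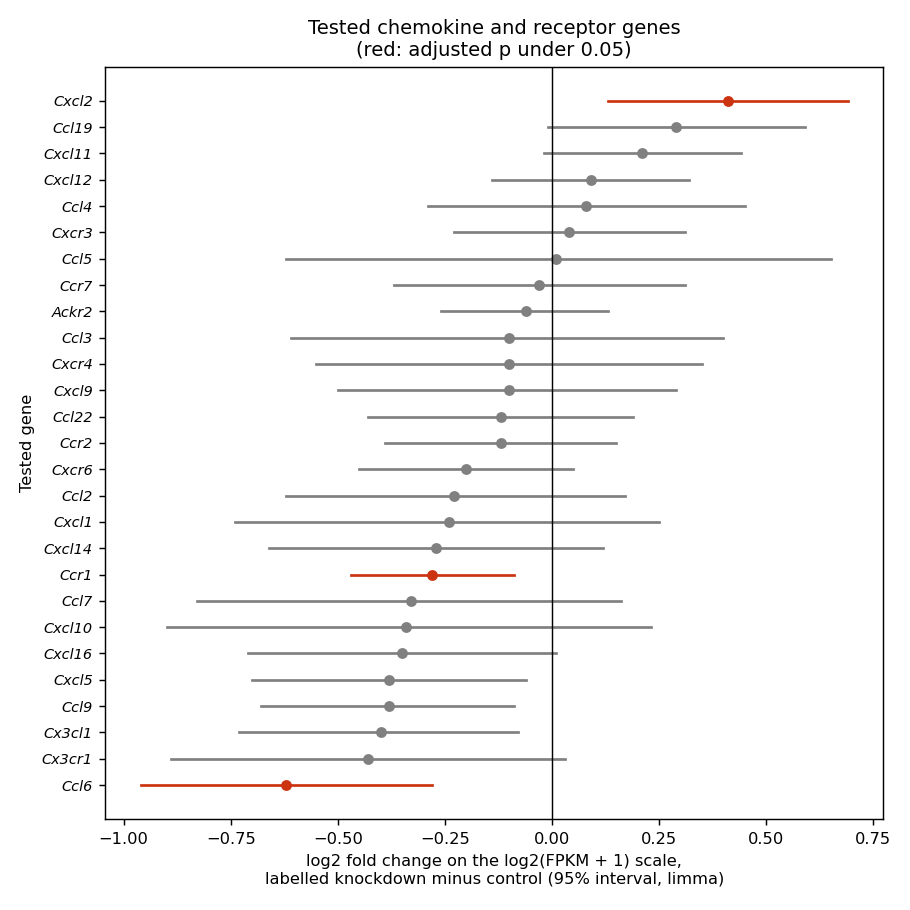
Log2 fold change of 27 tested members on the log2(FPKM + 1) scale, labelled knockdown minus control, as points with 95% intervals from limma (n = 5 libraries a group); red marks an adjusted p under 0.05. Ccl6 (-0.62), Ccr1 (-0.28) and Cxcl2 (0.41) are red.

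Among the CC ligands, Ccl6 (ENSMUSG00000018927) fell. The control libraries 1 to 5 held 12.7, 12.2, 15.6, 11.8 and 7.77 FPKM of Ccl6, while labelled knockdown 1 to 5 held 5.84, 6.91, 8.25, 8.71 and 6.93 FPKM. All labelled knockdown libraries were below the control mean, and control 5 lay inside their range. The group means were 12.0 ± 2.80 and 7.33 ± 1.15 FPKM, with a log2 fold change of -0.62 (SE 0.16, 95% interval -0.96 to -0.28, limma adjusted p = 0.0232). The call held in 7 of the 10 fits that left out 1 library and was lost without control 2 (adjusted p = 0.0554), control 3 (0.0534) or labelled knockdown 1 (0.0524). It also held once the dependence of each library on transcript length, the length trend, had been taken out (log2 fold change -0.68, adjusted p = 0.0198).

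Ccl9 (ENSMUSG00000019122), which lies beside Ccl6 in the CC cluster, did not pass the test. Its control libraries held 22.2, 23.9, 24.8, 29.4 and 17.2 FPKM, and its labelled knockdown libraries 16, 15.4, 17.2, 22.2 and 17.6 FPKM. As for Ccl6, control 5 was the low control library, and labelled knockdown 4 was the high one of its group. The log2 fold change was -0.38 (SE 0.14, limma adjusted p = 0.0722), and leaving out control 5 or labelled knockdown 4 brought the adjusted p under 0.05, the lowest being 0.0218. Both genes encode attractants of monocytes, and Ccl6 and Ccl9 shared none of their 31-base words with each other in GENCODE M21, so reads of that length do not confuse them.

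The monocyte attractants Ccl2 and Ccl7, ligands of Ccr2, did not differ beyond their spread. Ccl2 (ENSMUSG00000035385) had 5.42, 6.80, 8.65, 10.8 and 9.24 FPKM in the control libraries and 5.26, 7.25, 7.11, 9.31 and 5.16 FPKM in the labelled knockdown libraries (log2 fold change -0.23, 95% interval -0.62 to 0.17, limma adjusted p = 0.406). Ccl7 (ENSMUSG00000035373) had 0.921, 1.64, 2.39, 4.66 and 2.02 FPKM against 1.32, 1.39, 1.28, 1.49 and 1.92 FPKM (log2 fold change -0.33, 95% interval -0.83 to 0.16, adjusted p = 0.324). Control 4 was the highest of all 10 libraries for both genes.

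Of the other CC ligands, Ccl5, Ccl3 and Ccl4, which are made by T cells, NK cells and macrophages, stayed near 0 in log2 fold change, at 0.01, -0.10 and 0.08. Ccl5 (ENSMUSG00000035042) had 5.16, 5.98, 4.26, 7.35 and 2.53 FPKM in the control libraries and 8.60, 6.30, 5.85, 3.07 and 2.59 FPKM in the others, and the 95% interval of its log2 fold change ran from -0.62 to 0.65. The sum of T and NK cell markers in the labelled knockdown libraries 1 to 5 was 10.2, 7.69, 8.46, 3.32 and 3.68 FPKM, low in the same 2 libraries as Ccl5, and its part in the result was not tested. Ccl19 (ENSMUSG00000071005), a ligand of Ccr7 in lymphoid tissue, had 0.415, 0.716, 0.189, 0.384 and 0.561 FPKM against 0.856, 0.413, 1.31, 0.602 and 0.755 FPKM. Its log2 fold change was 0.29 (95% interval -0.01 to 0.59, limma adjusted p = 0.160). Ccl22, a ligand of Ccr4 made by dendritic cells and macrophages, had a log2 fold change of -0.12 (adjusted p = 0.594).

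Among the CXC ligands that attract neutrophils, Cxcl2 (ENSMUSG00000058427) rose. Its control libraries held 0.363, 0.476, 0.705, 1.10 and 0.474 FPKM, and its labelled knockdown libraries 0.868, 1.42, 1.46, 0.969 and 1.02 FPKM. All labelled knockdown libraries were above the control mean, and control 4 lay among them. Cxcl2 reached 0.5 FPKM in 2 control and 5 labelled knockdown libraries, so it met the test minimum mainly through the group where it was high. The means were 0.623 ± 0.293 and 1.15 ± 0.271 FPKM, with a log2 fold change of 0.41 (SE 0.13, 95% interval 0.13 to 0.69, limma adjusted p = 0.0472). When each library was left out in turn, Cxcl2 passed in only 2 of the 10 fits, those without control 4 (adjusted p = 0.0251) and without labelled knockdown 4 (0.0491), and the adjusted p was up to 0.106 in the rest. It was lost after removal of the length trend (0.0637) and with the replicate number as a block (0.0598). Of the 31-base words of Cxcl2 transcripts, 7.59% also occur in Cxcl3, whose mean was 0.0361 FPKM.

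Cxcl1 (ENSMUSG00000029380), the most abundant member, did not pass the test. It had 25.3, 15.7, 45.5, 35.5 and 29.7 FPKM in the control libraries and 23.3, 20.6, 29.1, 27.2 and 21.0 FPKM in the labelled knockdown libraries (log2 fold change -0.24, 95% interval -0.74 to 0.25, limma adjusted p = 0.482). The control range enclosed that of the other group. The log2 ratio of Cxcl2 to Cxcl1 within a library was -6.12, -5.04, -6.01, -5.01 and -5.97 in the control libraries and -4.75, -3.86, -4.32, -4.81 and -4.37 in the labelled knockdown libraries. The means were -5.63 ± 0.55 and -4.42 ± 0.38, and the groups did not overlap. This pair was chosen after its values were seen and joins a called gene to one whose mean went the other way. The ratio is therefore given as a description, without a p-value. Cxcl5 (ENSMUSG00000029371), another neutrophil attractant, had 0.791, 1.28, 0.865, 1.2 and 1.38 FPKM in the control libraries and 0.393, 0.669, 0.785, 1.10 and 0.209 FPKM in the others. Its log2 fold change was -0.38 (limma adjusted p = 0.0911), and without labelled knockdown 4 its adjusted p was 0.0323. Neutrophil markers were low in both groups, with sums of 6.79 to 11 FPKM in the control libraries and 7.02 to 13.0 FPKM in the others, and the neutrophil receptors Cxcr1 and Cxcr2 had means under 0.2 FPKM in each group.

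**Figure D3:**
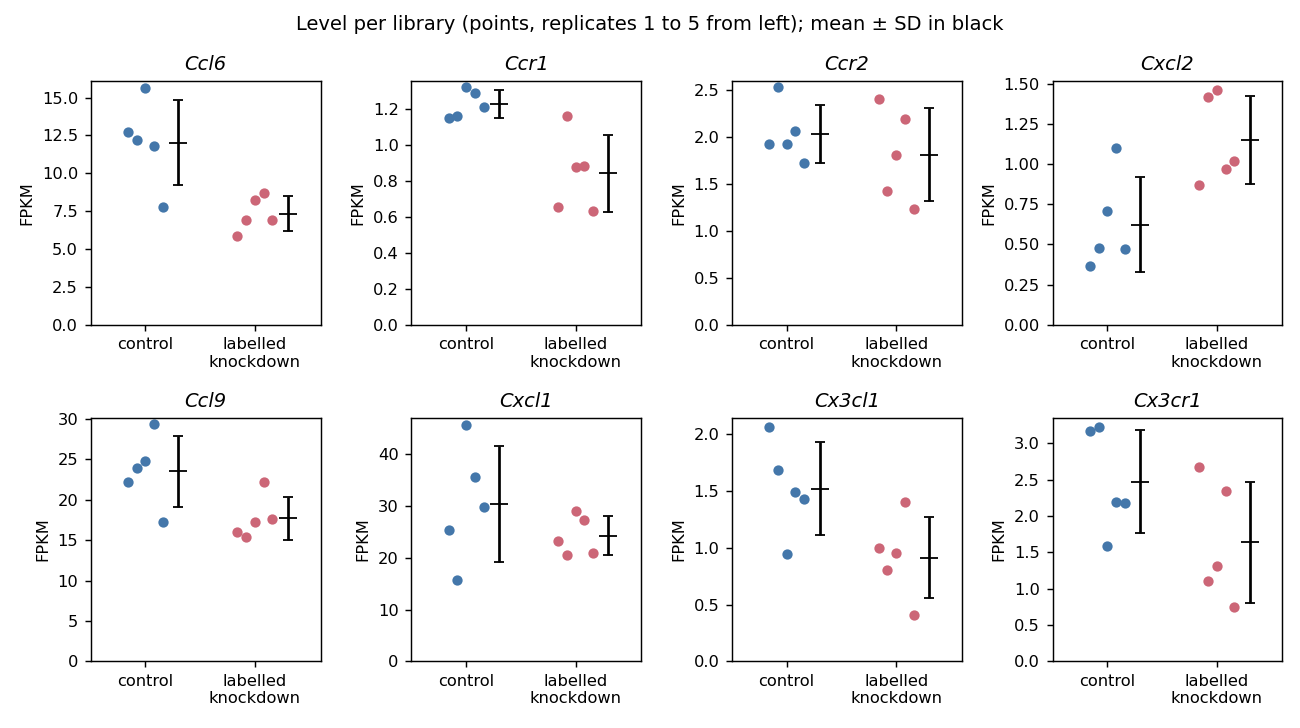
FPKM of 8 members in each library, with control in blue, labelled knockdown in red, replicates 1 to 5 from left to right within a group, and mean ± SD (n = 5) in black; axes start at 0. Ccl6 and Ccr1 are lower and Cxcl2 is higher in the labelled knockdown group by the limma test, while Ccr2, Cxcl1, Ccl9, Cx3cl1 and Cx3cr1 did not pass it.

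The interferon-induced ligands of Cxcr3, which draw T and NK cells, did not pass the test. Cxcl10 (ENSMUSG00000034855) had 7.38, 7.34, 9.07, 21.6 and 7.77 FPKM in the control libraries and 8.31, 6.19, 5.93, 10.1 and 7.40 FPKM in the labelled knockdown libraries (log2 fold change -0.34, limma adjusted p = 0.385). Control 4 stood far above every other library, and without it the log2 fold change was -0.07. Cxcl9 had group means of 5.08 ± 1.63 and 4.60 ± 1.15 FPKM. Cxcl11 (ENSMUSG00000060183), which the deposited table classes as a gene with loss of function, had 1.41, 0.921, 1.43, 1.25 and 0.929 FPKM against 1.88, 1.31, 1.75, 1.17 and 1.57 FPKM (log2 fold change 0.21, adjusted p = 0.185). Their receptor Cxcr3 was near the minimum, at 0.649 ± 0.176 and 0.711 ± 0.321 FPKM.

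The remaining CXC ligands are made mainly by stromal and epithelial cells and macrophages. Cxcl12 (ENSMUSG00000061353) had 25.0, 23.2, 24.8, 18.7 and 22.1 FPKM in the control libraries and 27.2, 23.3, 27.7, 22.5 and 20.7 FPKM in the others (log2 fold change 0.09, 95% interval -0.14 to 0.32, limma adjusted p = 0.581). Cxcl14 (ENSMUSG00000021508), an epithelial chemokine, had 5.05, 5.07, 5.13, 4.89 and 2.66 FPKM against 4.39, 3.01, 3.16, 4.98 and 2.52 FPKM (log2 fold change -0.27, adjusted p = 0.305). Control 5 was apart from the other control libraries. Cxcl16 (ENSMUSG00000018920), a membrane-bound ligand of Cxcr6, had 9.14, 10, 7.39, 8.91 and 8.40 FPKM against 7.34, 6.54, 7.15, 9.38 and 3.94 FPKM. Labelled knockdown 1, 2, 3 and 5 lay below every control library and labelled knockdown 4 lay within the control range, and the log2 fold change was -0.35 (95% interval -0.71 to 0.01, adjusted p = 0.165). Its receptor Cxcr6 (ENSMUSG00000048521), found on T and NKT cells, had 1.01, 0.927, 0.779, 0.594 and 0.617 FPKM against 0.593, 0.558, 0.961, 0.374 and 0.334 FPKM (log2 fold change -0.20, adjusted p = 0.248).

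Fractalkine and its receptor had lower means in the labelled knockdown group without passing the test. Cx3cl1 (ENSMUSG00000031778), the membrane-bound ligand, had 2.06, 1.68, 0.941, 1.49 and 1.43 FPKM in the control libraries and 0.996, 0.807, 0.955, 1.40 and 0.407 FPKM in the others (log2 fold change -0.40, 95% interval -0.73 to -0.08, limma adjusted p = 0.0831, and 0.0387 without labelled knockdown 4). Cx3cr1 (ENSMUSG00000052336), which marks monocyte-derived cells, had 3.17, 3.23, 1.59, 2.20 and 2.18 FPKM against 2.68, 1.10, 1.31, 2.35 and 0.753 FPKM (log2 fold change -0.43, 95% interval -0.89 to 0.03, adjusted p = 0.176). Both genes were highest in control 1 or 2 and lowest in labelled knockdown 5.

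Among the receptors, Ccr1 fell. Ccr1 (ENSMUSG00000025804), a myeloid receptor of Ccl3, Ccl5, Ccl6 and Ccl9, had 1.15, 1.16, 1.32, 1.29 and 1.21 FPKM in the control libraries, the narrowest relative spread among the members named here. The labelled knockdown libraries held 0.654, 1.16, 0.875, 0.882 and 0.634 FPKM. Labelled knockdown 2 stood within the control range and the other 4 libraries below it. The log2 fold change was -0.28 (SE 0.09, 95% interval -0.47 to -0.09, limma adjusted p = 0.0457). Among the 10 fits that left out a library, Ccr1 passed in 1, the one without labelled knockdown 2 (adjusted p = 0.0275), with up to 0.0974 in the rest. It was lost after removal of the length trend (0.120), with median-of-ratios scaling (0.0660), with quantile normalization (0.0730) and with the replicate number as a block (0.0732).

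Ccr2 (ENSMUSG00000049103) had 1.92, 2.53, 1.92, 2.06 and 1.72 FPKM in the control libraries and 2.40, 1.42, 1.81, 2.19 and 1.23 FPKM in the others (log2 fold change -0.12, 95% interval -0.39 to 0.15, limma adjusted p = 0.520). The receptors Cxcr4, Ccr7 and Cxcr3 had log2 fold changes of -0.10, -0.03 and 0.04. Ackr2, the decoy receptor of inflammatory CC chemokines, had 0.543 ± 0.107 and 0.481 ± 0.144 FPKM (log2 fold change -0.06, adjusted p = 0.660).

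The libraries differed in their overall chemokine profile within each group. Labelled knockdown 5 was the lowest of the 10 libraries for 15 of the 28 tested members and for 8 of the 9 tested receptors, atypical receptor included. That library also held the fewest genes above 0, 21653 against 22153 to 23079 in the others. The same count was not made over all tested genes, so the low rank is not shown to be particular to these members. Control 4 was the highest library for 7 members, 6 of them ligands. The receptor sum was 6.24 FPKM in labelled knockdown 5, where the other libraries lay between 8.93 and 15.7 FPKM. The same library had the lowest sum of markers of monocytes and monocyte-derived macrophages, 279 FPKM against 512 to 1060 FPKM elsewhere. It was also lowest for cholangiocyte markers, 41.6 FPKM against 124 to 362 FPKM. Spp1 stands in both of these marker lists, so these sums are not separate observations. Other lists were not lowest there. Kupffer cell markers summed to 87.8 FPKM in that library, where its group ran from 48.1 to 92.5 FPKM. Sinusoidal endothelium markers summed to 23.8 FPKM, the highest of its group. Without labelled knockdown 5, Ccl6 was the only called member, at a log2 fold change of -0.61 (limma adjusted p = 0.0499).

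**Figure D4:**
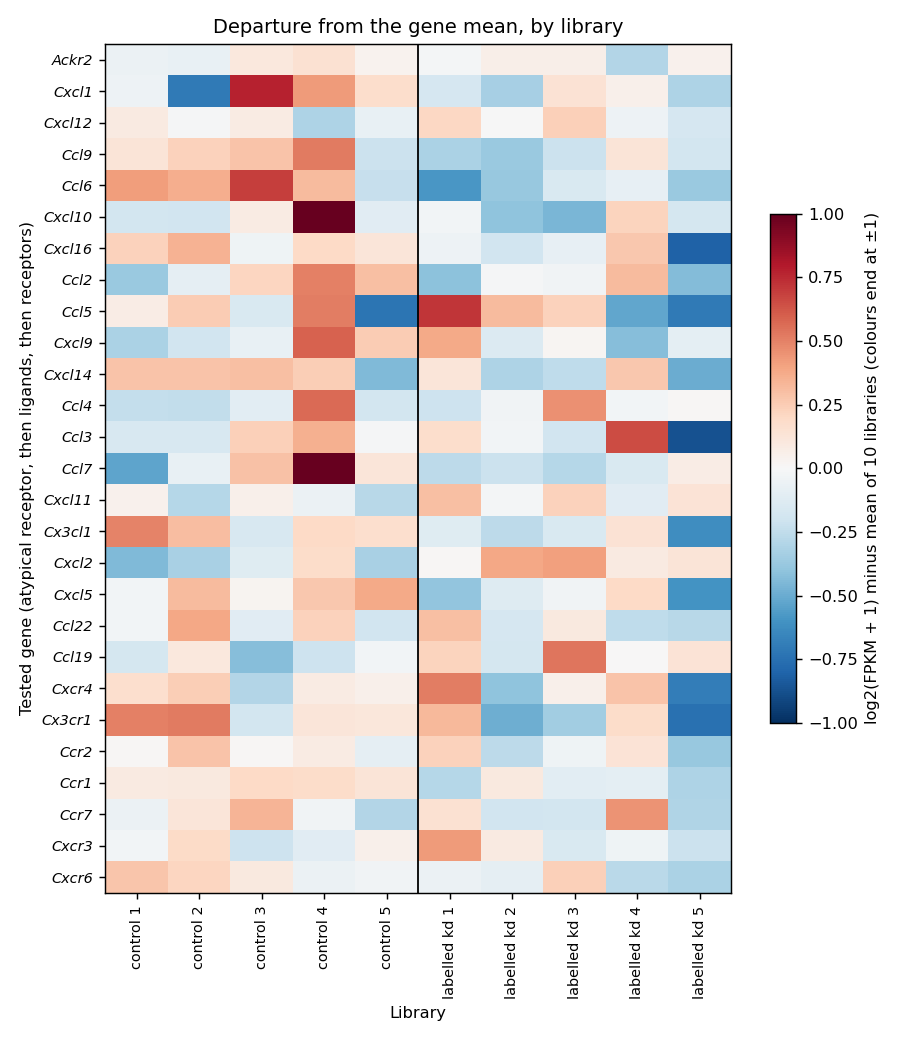
Departure of 27 tested members, each from its own mean over the 10 libraries, in log2(FPKM + 1), with control 1 to 5 on the left and labelled knockdown 1 to 5 on the right; red is higher, blue is lower and colours end at ±1. Labelled knockdown 5 is lowest for 14 of the 27 members drawn, and control 4 is highest for 7. The same count was not made over all tested genes.

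Ccr1, Ccl6 and Ccl9 are made largely by macrophages. Of 18 tested macrophage markers, 3 were lower and 0 higher, where 9.65% of all tested genes were lower. The median log2 fold change was -0.56 for the 7 tested Kupffer cell markers. It was -0.33 for the 11 tested markers of monocytes and monocyte-derived macrophages, and -0.04 for all tested genes. In bulk liver, fewer cells of a type and less RNA per cell cannot be told apart. Kupffer cell markers had 2 of 7 tested members lower and 0 higher, and their summed level was 80.3 to 184 FPKM in the control libraries and 48.1 to 92.5 FPKM in the others. Adgre1, the macrophage antigen F4/80, fell from 6.63 ± 0.760 to 3.01 ± 0.975 FPKM (limma adjusted p = 0.00684, log2 fold change -0.95), with no overlap between the groups. Such a lack of overlap, with the labelled knockdown group lower, was found in 7.48% of all tested genes. Markers of monocytes and monocyte-derived macrophages had 1 of 11 tested members lower, Itgam (log2 fold change -0.50, adjusted p = 0.0322), and summed to 572 to 1060 and 279 to 754 FPKM. The Itgam call held in 3 of the 10 fits that left out a library (adjusted p up to 0.0704), and those of Adgre1 and Cd5l (log2 fold change -1.01) held in all 10. Other defining markers did not pass. Clec4f had means of 15.2 and 11.5 FPKM (adjusted p = 0.623), Marco had a higher mean in the labelled knockdown group, 3.07 against 4.40 FPKM (log2 fold change 0.70, adjusted p = 0.410), and so had Ly6c2 (0.05, 0.798) and S100a4 (0.17, 0.642). Timd4 and Cd163, below the test minimum, also had higher means there, and no gene of the marker lists was at 0 in every library. The part of these markers in the chemokine results was not tested.

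Within each library, the log2 ratio of Ccl6 to Adgre1 was 0.83 ± 0.26 in the control group and 1.32 ± 0.27 in the labelled knockdown group, and that of Ccr1 to Adgre1 was -2.43 ± 0.16 and -1.82 ± 0.45. Adgre1 was chosen after its values were seen and is among the most reduced of these markers, so the ratios are given without a p-value. On the log2 ratio of group mean FPKM, Ccl6 stood at -0.71. Among markers picked for comparison, the ratio was -1.14 for Adgre1, -0.73 for Itgam, -0.63 for Lyz2 and -0.41 for both Clec4f and Gpnmb. Cd5l, lower by limma at a log2 fold change of -1.01, was not among those picked. Marco, Ly6c2, S100a4, Timd4 and Cd163 were not either, and had higher means in the labelled knockdown group. The place of Ccl6 thus depends on the marker chosen.

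**Figure D5:**
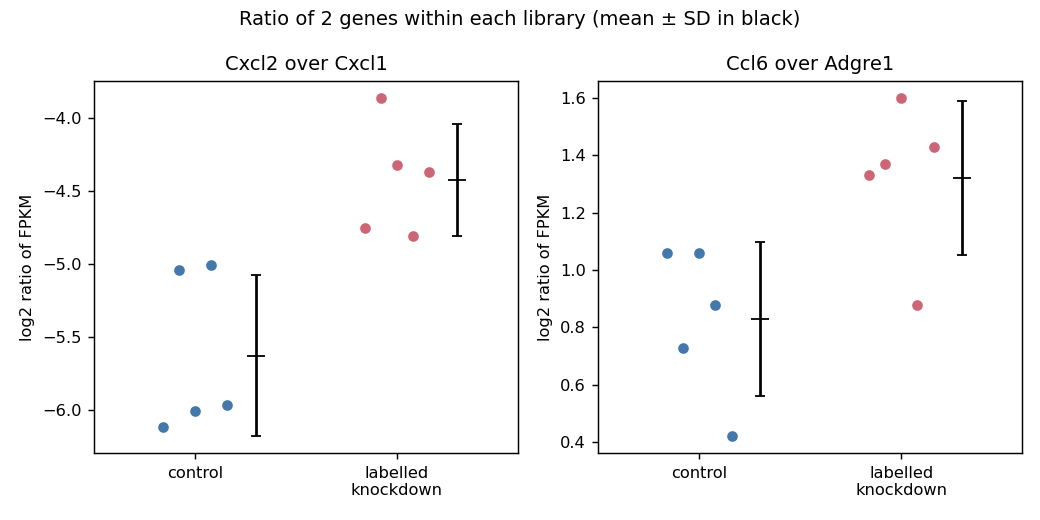
Log2 ratio of FPKM of Cxcl2 to Cxcl1 and of Ccl6 to Adgre1 within each library, control in blue, labelled knockdown in red, replicates 1 to 5 from left to right, with mean ± SD (n = 5) in black. The Cxcl2 to Cxcl1 ratio is higher in every labelled knockdown library than in any control library, and the Ccl6 to Adgre1 ratio has means of 0.83 and 1.32.

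Of the lymphocyte and neutrophil markers, none passed the test, where 16.8% of all tested genes were called, 7.13% of them higher. T and NK cell markers had 0 of 5 tested members called, with sums of 6.15 to 7.97 and 3.32 to 10.2 FPKM, and B and plasma cell markers 0 of 2, with sums of 4.01 to 6.67 and 4.61 to 7.29 FPKM. Neutrophil markers had 0 of 3 called. In the dendritic cell list 1 of 4 was higher, Batf3, from 0.700 ± 0.155 to 1.42 ± 0.443 FPKM (limma adjusted p = 0.0244, log2 fold change 0.50). Among sources of chemokines other than leukocytes, sinusoidal endothelium markers had 1 of 8 lower, stellate cell and myofibroblast markers 2 of 8 lower, and cholangiocyte markers 0 of 4 called, where 9.65% of all tested genes were lower. Hepatocyte markers had 2 of 7 lower, Cps1 (log2 fold change -0.71) and Hnf4a (-0.42), both with no overlap and an adjusted p of 0.00944, and 1 higher, Ttr (0.40, adjusted p = 0.0268). The labelled knockdown group lay wholly below the control group in 7.48% of all tested genes. When each library was left out in turn, the endothelial call, Pecam1, held in 2 of 10 fits. Of the stellate cell calls, Col1a1 held in 2 and Reln in all 10. Ttr held in 5, Batf3 in 8, and Cps1 and Hnf4a in all 10. The part of any of these in the chemokine results was not tested.

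The 26 members below the test minimum had means of at most 0.543 FPKM. Of these, 10 were above 0 in all 10 libraries: the ligands Ccl24, Ccl25 and Xcl1, the receptors Xcr1, Cxcr2, Ccr10, Cxcr5 and Ccr9, and the atypical receptors Ackr3 and Ackr4. The other 16 were listed at 0 in at least 1 library, and 12 of the 54 members had a mean under 0.1 FPKM. Ackr1, an atypical receptor of venous endothelium and red cells, had 0.505, 0.343, 1.67, 0.347 and 0.631 FPKM in the control libraries and 0.293, 0.216, 0, 0.140 and 0.397 FPKM in the others; fitted with every gene and no minimum it gave an unadjusted limma p of 0.0368 and an adjusted p of 0.224. Ccl24, an eosinophil attractant, had 0.141, 0.286, 1.61, 1.31 and 0.388 FPKM against 0.169, 0.110, 0.188, 0.614 and 0.611 FPKM (adjusted p = 0.564 in that fit). Ccl8 was above 0 in 3 libraries, Ccl12 in 4, and Ccr4, Ccl1 and Ccr3 had means of 0.00494, 0.00590 and 0.0211 FPKM, values at which no difference was detectable.

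Several relatives of the family fall outside the symbol rule. Of 9 tested genes on that list, 1 was lower and 1 higher. Of all tested genes, 9.65% were lower and 7.13% higher. In 7.48% of all tested genes the labelled knockdown group lay wholly below the control group. Cmklr1, the receptor of the attractant chemerin, fell, from 1.61, 1.52, 1.14, 1.41 and 1.29 FPKM in the control libraries to 0.605, 0.661, 0.806, 0.810 and 0.598 FPKM in the labelled knockdown libraries (log2 fold change -0.50, limma adjusted p = 0.00778), with no overlap between the groups. Its ligand gene Rarres2 did not pass, with 132 and 164 FPKM as group means (log2 fold change 0.33, adjusted p = 0.162). Mif, a cytokine that can bind Cxcr2 and Cxcr4, rose from 111 ± 13.0 to 148 ± 15.4 FPKM (adjusted p = 0.0229, log2 fold change 0.42). The Mif call was lost with the length trend removed (adjusted p = 0.117) and without control 2, 3 or 4 or labelled knockdown 5 (up to 0.0595). The platelet chemokine Pf4, at 3.74 and 3.04 FPKM (adjusted p = 0.321), and Ccl27a (0.343) did not pass.

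Downstream of the receptors, 14 of 52 tested genes of the signalling list were lower and 1 was higher, where 9.65% of all tested genes were lower and 7.13% higher. The count of lower genes was 8 without control 2 or labelled knockdown 5 and 9 without labelled knockdown 2. The median log2 fold change was -0.20 beside -0.04 for all tested genes. The 6 with the smallest p were Rap1b (log2 fold change -0.56), a small GTPase that activates integrins, Stat3 (-0.52), Rhoa (-0.41), Gnai3 (-0.43), an inhibitory G protein subunit, Cdc42 (-0.44) and Lyn (-0.45), a myeloid Src-family kinase. Their limma adjusted p lay between 0.00839 and 0.0139, and each was called in all 10 fits that left out a library. Most of these are expressed by many cell types of the liver, so their levels are not those of leukocytes alone. The gene that rose was Gng5, a G protein gamma subunit, from 19.8 ± 0.543 to 24.6 ± 2.62 FPKM; its call was lost with the replicate number as a block (adjusted p = 0.0526) and without control 2, 3 or 4 or labelled knockdown 3 (up to 0.0644). The beta-arrestin gene Arrb1, which desensitizes the receptors, was lower at -0.29 (adjusted p = 0.0368) and passed in 3 of those 10 fits.

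Of 17 tested genes that process or present chemokines, 5 were lower and 0 higher (median log2 fold change -0.25), where 9.65% of all tested genes were lower and 7.13% higher. They were Sdc3 (-0.48), a heparan sulphate carrier, Ndst1 (-0.45), a heparan sulphate sulfotransferase, Mmp14 (-0.27), and the sheddases Adam10 (-0.39) and Adam17 (-0.28), which release Cx3cl1 and Cxcl16 from the cell surface. Their limma adjusted p ran from 0.0167 to 0.0481. Sdc3 and Ndst1 were called in all 10 fits that left out a library, Mmp14 in 2, and Adam10 and Adam17 in 1 each. The count was 2 without control 2, 3 or 4 or labelled knockdown 1, 2, 3 or 5, 3 without control 1 or 5, and 8 without labelled knockdown 4. Of 23 tested upstream cytokine and transcription factor genes, 3 were lower and 0 higher: Tgfb1 (-0.43, adjusted p = 0.0353), Ifngr2 (-0.39, 0.0381) and Hif1a (-0.38, 0.0408). This share is near the background of 9.65% lower, and the count was 0 in 7 of those 10 fits (without control 2, 3 or 4, or labelled knockdown 1, 2, 3 or 5; 5 genes were lower at an unadjusted limma p under 0.05 in each) and 1 without control 1. After removal of the length trend, 1 processing gene and 1 upstream gene were called lower.

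In the authors' deposited table, 0 of the 54 members were marked significant, against 1.34% of all 29657 genes. A q-value under 0.05 was not enough for that mark. By the q-value of the authors' deposited table, 2 members were under 0.05, Ccl6 among them (fold ratio 0.611, q = 0.00568). Ccr1 and Cxcl2 had q-values of 0.121 and 0.0534 in the authors' deposited table.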

How the data were processed

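Liver RNA of 10 samples, 5 a group, was compared; titles gave the groups and the replicate numbers. The submitters' processing notes name cutadapt 1.9 with HISAT2 2.0.4, and StringTie 1.3.4d. They name a human build, GRCh38, while the identifiers are mouse; the mouse build, and the strand setting for the dUTP libraries of the labels' protocols, are not given in the sources used here. For each library the deposited values are FPKM, per the file headers, beside the authors' fold ratio, its log2 value, and a p-value and q-value of unstated test.

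FPKM are not counts, so no count model was run. Low values were whole multiples of a common step (tolerance 0.02) for 9.0 to 10.45% of genes, so reads were not recovered. From the deposited FPKM, log2(FPKM + 1) was fitted with limma 3.58.1 in R 4.3.3 (two-sided, mean-variance trend, Benjamini-Hochberg adjustment over 13471 genes with at least 0.5 FPKM in at least 5 libraries, threshold 0.05); such fold changes understate changes of low genes. The fit was tested on simulated data. Lgals3 also had an exact permutation test on FPKM. The same test was run on the log2 ratios between genes. Its p-values for them are left out, because the pairs were chosen after values were seen.

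Members and lists were chosen with earlier results of these data known. Values of every library are given for called members, the 8 most abundant, and up to 8 more by p; Ccr2, Ackr1, Ccl24, Cmklr1 and the ratios were added after values were seen. Promoters are RefSeq's. Alternatives covered pseudocount, filter, scaling, weights, variance model, replicate block, length trend (97.9% of tested genes had a length) and each library left out. No sample column was left out, and 0 library pairs held identical values. Results of 1 member are not reported here; it stays in the counts and is left out of the figures.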

Additional observations from a re-analysis of the deposited data

Results flagged for a closer look

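Among 78 groups of 5 values checked on the log2(FPKM + 1) scale, over the tested members, Lgals3 and the marker sums, 4 held a library far from the rest of its group by Dixon's criterion, where chance gives about 1 in 20. Cxcl10 was 21.6 FPKM in control 4 and 7.34 to 9.07 FPKM in the other control libraries. Ccl4 was 4.86 FPKM in control 4, against 2.33 to 2.68 FPKM. Cxcl14 was 2.66 FPKM in control 5, against 4.89 to 5.13 FPKM. Ackr2 was 0.23 FPKM in labelled knockdown 4, against 0.488 to 0.569 FPKM.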

How the results depend on the processing

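Ccl6 kept its call in 12 of 13 alternatives, and none of the 4 called members turned direction. Members called lower (3) were 0 with no filter (8 with unadjusted limma p under 0.05), 5 with array weights and 1 with the length trend removed. Members called higher (1) were 0 with no filter, a minimum of 0.1 FPKM, quantile normalization, the replicate block or the length trend removed. With a minimum of 1 FPKM, Cxcl2 was not fitted, so its call was not retested there. All tested genes called lower (1300) were 682, 2047 and 720 with no filter, array weights and the length trend removed, and those called higher (960) were 511 with no filter. Signalling genes lower (14) were 9 with no filter; higher (1) were 2 with array weights and 0 with the replicate block. The relative called higher (1) was lost, 0, with the length trend removed. Processing genes lower (5) were 2 with no filter or a minimum of 0.1 FPKM, 3 with the replicate block and 1 with the length trend removed. Upstream genes lower (3) were 0 with no filter, 1 with median-of-ratios scaling, 5 with array weights and 1 with the length trend removed. Markers lower (8) were 5, 13 and 5 with no filter, array weights and the length trend removed. Markers higher (2) were 0 with no filter and 1 with a minimum of 0.1 FPKM or the replicate block. They were also 1 with a minimum of 1 FPKM, where Batf3 was not fitted. The cause was not tested.

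Leaving out 1 library gave 0 to 5 members lower and 0 to 1 higher; the 0 lower came without control 2, control 3 or labelled knockdown 1 (8, 10 and 7 members with unadjusted p under 0.05). All genes ranged from 549 to 1736 lower and 442 to 966 higher, signalling 8 to 20 and 0 to 2, relatives 1 to 1 and 0 to 1, processing 2 to 8 lower, upstream 0 to 4 lower, markers 5 to 12 and 0 to 2, and Lgals3 -0.09 to 0.26. Members near 0 turned sign: Ccl5 to -0.03 with array weights and -0.14 with the length trend removed, Ccl4 to -0.07 and Ackr2 to 0.01 with the length trend removed, and Cxcr3 to -0.01 with array weights. Without 1 library the log2 fold change ran from -0.17 to 0.19 for Ccl5, -0.21 to 0.03 for Cxcl9, -0.02 to 0.23 for Ccl4, -0.24 to 0.06 for Cxcr4, -0.28 to 0.10 for Ccl3, -0.15 to 0.05 for Ccr7, -0.06 to 0.10 for Cxcr3 and -0.09 to 0.00 for Ackr2. The labels do not say that equal numbers mark pairs, so the numbers were not taken as pairs. Departures from the group means correlated at -0.0145 to 0.114 between same-numbered libraries, and differently numbered libraries were not compared. With the replicate block 3 members were called, Ccl6 and Ccl9 among them. Depth is unknown, and members near 0 FPKM cannot show a difference.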
